A study of Homo sapiens with 8 samples.

Results

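Open chromatin was examined at 9 genes of the osteoblast lineage, RUNX2, SP7, MSX2, DLX5, ALPL, SPARC, SPP1, IBSP and BGLAP, in U2OS, a line of human osteosarcoma cells. The 9 genes were chosen by name from 19970 protein-coding genes of GENCODE 44 (GRCh38), and every peak in a gene body or within 20 kb of it was taken. Peaks that shared 1 bp or more between libraries were merged into a region, which gave 43 of the 52105 regions of the series. Of these, 7 touched a promoter of a member, defined as 500 bp either side of any annotated transcription start site (TSS), and 33 were distal, touching no promoter of any gene. The remaining 3 lay at the promoter of a neighbouring gene.

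The libraries were made by FAIRE-seq, in which phenol-chloroform extraction of fixed and sonicated chromatin recovers DNA that is not bound in nucleosomes. There were 2 wild type (WT) clones, WT_4 and WT_5, and 2 clones with a knockout (KO) of the zinc finger protein ZBTB48, KO_C5 and KO_D2. From each clone, 1 library was made without treatment and 1 after interferon gamma (IFNγ) at 250 U/ml. The treatment lasted 24 hours according to the labels, but a legend of the study names a longer time, so its duration is uncertain. Each genotype was thus represented by 2 single clones, and the knockout itself was not checked here.

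Osteoblasts arise from mesenchymal progenitors through RUNX2, the master regulator of the lineage, and SP7 (osterix), which acts downstream of it. DLX5 and MSX2 are homeodomain proteins that act downstream of bone morphogenetic protein (BMP) signals. Committed cells then make a mineralising matrix, with the alkaline phosphatase ALPL, the collagen-binding glycoprotein SPARC (osteonectin), the phosphoproteins SPP1 (osteopontin) and IBSP (bone sialoprotein), and, late in maturation, BGLAP (osteocalcin). RUNX2 is transcribed from an upstream promoter, P1, and a downstream promoter, P2.

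The 7 sequences printed here were read from GRCh38 and are those on which the results turn. They are the promoter with the strongest peaks (MSX2, chr5:174724332-174724581, plus strand), the P1 and P2 promoters of RUNX2 (chr6:45327907-45328156, plus strand, and chr6:45421786-45422035, plus strand), of which only P2 carried peaks, and the SPARC promoter (chr5:151686976-151687225, minus strand). The other 3 are the open stretch in intron 1 of SP7 (chr12:53344787-53345036, minus strand), the region downstream of DLX5 that every library shared (chr7:97016900-97017149, minus strand) and the strongest distal region of SPARC (chr5:151699229-151699478, minus strand). Promoter sequences are the 250 bases before the first TSS of the promoter, and the others are 250 bases centred on the strongest summit, all on the strand of the gene. Capitals mark matches on either strand to TGTGGT (RUNX), TAATTA (homeodomain), TGANTCA (AP-1), GGAATG (TEAD), GGGCGG (SP) or TTAGGG, the telomere hexamer that ZBTB48 binds.
MSX2 promoter: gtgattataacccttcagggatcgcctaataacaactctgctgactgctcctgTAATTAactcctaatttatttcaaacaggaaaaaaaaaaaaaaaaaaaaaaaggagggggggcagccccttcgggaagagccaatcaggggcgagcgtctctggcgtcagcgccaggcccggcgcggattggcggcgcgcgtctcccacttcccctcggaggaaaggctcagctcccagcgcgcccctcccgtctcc
RUNX2 P1: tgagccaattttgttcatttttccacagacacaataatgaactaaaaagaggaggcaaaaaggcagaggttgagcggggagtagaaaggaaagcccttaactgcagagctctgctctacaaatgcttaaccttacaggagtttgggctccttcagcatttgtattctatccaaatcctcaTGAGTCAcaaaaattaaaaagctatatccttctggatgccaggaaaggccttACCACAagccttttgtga
RUNX2 P2: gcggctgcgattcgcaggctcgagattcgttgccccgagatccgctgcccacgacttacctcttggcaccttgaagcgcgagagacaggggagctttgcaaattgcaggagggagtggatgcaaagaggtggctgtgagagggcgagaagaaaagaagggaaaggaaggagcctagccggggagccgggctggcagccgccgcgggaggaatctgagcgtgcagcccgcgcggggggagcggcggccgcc
SPARC promoter: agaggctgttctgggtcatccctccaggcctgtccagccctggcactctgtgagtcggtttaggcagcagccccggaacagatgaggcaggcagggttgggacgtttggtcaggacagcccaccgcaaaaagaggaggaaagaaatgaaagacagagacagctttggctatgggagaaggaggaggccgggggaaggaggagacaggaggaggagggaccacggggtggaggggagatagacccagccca
SP7 intron: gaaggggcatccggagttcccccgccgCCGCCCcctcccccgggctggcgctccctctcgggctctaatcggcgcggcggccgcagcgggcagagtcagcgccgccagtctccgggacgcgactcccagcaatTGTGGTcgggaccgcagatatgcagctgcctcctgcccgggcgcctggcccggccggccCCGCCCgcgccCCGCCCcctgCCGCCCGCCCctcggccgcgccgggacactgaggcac
DLX5 downstream: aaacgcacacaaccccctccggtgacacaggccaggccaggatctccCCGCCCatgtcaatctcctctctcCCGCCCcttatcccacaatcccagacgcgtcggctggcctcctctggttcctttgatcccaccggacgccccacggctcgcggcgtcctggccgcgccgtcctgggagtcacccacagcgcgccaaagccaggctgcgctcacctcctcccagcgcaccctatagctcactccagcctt
SPARC upstream: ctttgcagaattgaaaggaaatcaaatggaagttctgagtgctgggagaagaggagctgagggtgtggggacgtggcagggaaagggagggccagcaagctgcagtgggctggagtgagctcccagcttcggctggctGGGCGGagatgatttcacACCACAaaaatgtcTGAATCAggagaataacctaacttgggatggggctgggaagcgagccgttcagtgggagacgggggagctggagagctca

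Depth and background bear on every value below. Counting chromosomes 1 to 22 and X, the shortest list held 16730 peaks and the longest 37533. Read counts were not analysed here, and the background per position solved from the fold enrichment and −log10 p of each list ranged from 0.621 to 1.08 fragments, at which a summit needed at least 5 or 6 fragments to be listed. A missing peak therefore means that a site was not listed, and not that its chromatin was closed. The values are given on a pair of scales, the fold enrichment of the summit over its local background as deposited, and the percentile of the −log10 p of a peak within its own list, where 100 is the strongest peak. Percentiles moved with list length, as the median over promoters found in all libraries ranged from 67.4 in untreated KO_D2, the shortest list, to 84.8 in IFNγ-treated WT_5, the longest. Local background moved with genotype. At those promoters its median was between 1.64 and 1.73 times the library background in WT libraries and between 3.01 and 3.10 times in KO libraries. At 58.3% of the regions present in all 8 libraries every KO library had a higher local background than every WT library.

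The first comparison asked which member promoters were listed as open. RUNX2, SP7 and MSX2 had a promoter peak in all 8 libraries, which is 3 of 9 members beside 51.2% of all protein-coding genes. SPP1, IBSP and DLX5 had none in any library, which is 3 of 9 beside 27.8%. The other members were listed in part, with SPARC in 5 libraries, ALPL in 4 and BGLAP in 2. When only the TSSs of protein-coding transcripts were used, members with no promoter peak went from 3 to 4. The share of members with a constant promoter peak was thus below that of all protein-coding genes, and the share with none was close to it. When every list was cut to its 16730 strongest peaks, the promoter of MSX2 was found in 8 libraries, that of SP7 in 6, those of RUNX2 and SPARC in 3 each, that of ALPL in 1 and the others in 0, so MSX2 was the only member found in every library at equal list lengths.

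**Figure D1:**
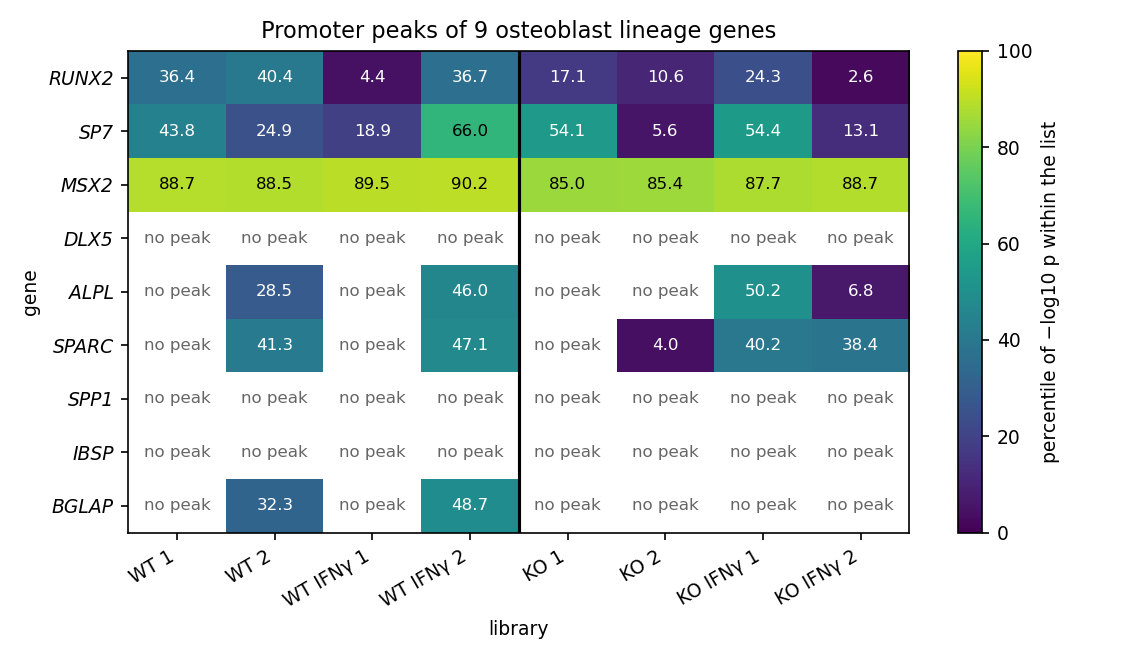
Promoter peaks of the 9 genes (rows) in the 8 libraries (columns, 1 for clones WT_4 and KO_C5, 2 for clones WT_5 and KO_D2), with WT left and KO right of the black line. Colour and number give the percentile of −log10 p within the list for the strongest promoter peak of the gene, and uncoloured cells are marked "no peak". MSX2 lies between 85.0 and 90.2 in every library, RUNX2 between 2.6 and 40.4, and SPP1, IBSP and DLX5 are marked "no peak" throughout.

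MSX2 had the strongest open chromatin of the 9 genes. Its promoter region (chromosome 5, 174724304 to 174725069) was at percentiles 88.7 and 88.5 in untreated WT and 89.5 and 90.2 in IFNγ-treated WT libraries. In KO libraries it was at 85.0 and 85.4 untreated and 87.7 and 88.7 after IFNγ. The summits lay between 26 and 56 bp upstream of the TSS. The deposited fold enrichment was 65.7, 43.0, 45.1 and 54.5 in the WT libraries in the same order and 38.6, 34.5, 39.4 and 30.8 in the KO libraries. Fold enrichment was thus higher in every WT than in every KO library, as it was at 22.8% of all regions present in all libraries. The local background at this promoter was between 1.29 and 1.56 times the library background in WT and between 2.40 and 2.43 times in KO. The summit pileup over library background overlapped between genotypes, with a range from 96.7 to 201 in WT and from 102 to 145 in KO. On the percentile scale the WT clones averaged 89.2 ± 0.200 and the KO clones 86.7 ± 0.475 (SD, n = 2 clones each), and the individual libraries overlapped by a narrow margin. The difference of 2.51 percentage points had the smallest p that 2 clones against 2 allow (exact permutation p = 0.333), and at equal list lengths it was -0.0344.

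RUNX2 was listed only at its downstream promoter. Its annotated TSSs form 3 clusters. No library had a peak at P1 (chromosome 6, 45328157 to 45328727) or at the single TSS at 45361573, and all 8 had one at P2 (TSSs from 45422036 to 45422577). The P2 region spans 45421694 to 45423175 and also touches the promoter of the lncRNA gene ENSG00000271857. It was at percentiles 36.4 and 40.4 in untreated WT, 4.38 and 36.7 in IFNγ-treated WT, 17.1 and 10.6 in untreated KO and 24.3 and 2.57 in IFNγ-treated KO libraries. The corresponding fold enrichments were 8.27, 7.70, 4.18, 7.47, 5.85, 6.09, 7.32 and 3.8. This peak was therefore weak in most libraries. In IFNγ-treated WT_4 its summit lay 750 bp downstream of the first P2 start site used for distances, away from the other libraries, whose summits lay at positions from -277 to 212 bp relative to that site. WT clones averaged 29.5 ± 12.9 and KO clones 13.6 ± 9.98, and the difference was 15.8 points, with overlap between the libraries of the genotypes (exact permutation p = 0.667, smallest possible 0.333). IFNγ-treated WT_4, at 4.38, was the only WT library within the range of the KO libraries. Without it the remaining 3 WT libraries lay above all 4 KO libraries, which follows from the choice of library. The share of all regions that would separate in this way was not counted. With IFNγ the percentile decreased by 9.12 points on average, with a rise in 1 of 4 clones (exact permutation p = 0.429). The largest change, -32.0 points in WT_4, set peaks that did not overlap side by side (45421694 to 45422394 untreated, 45422673 to 45422917 after IFNγ). They were joined only through longer peaks of other libraries, so this change and the WT clone mean mix different stretches. Without IFNγ-treated WT_4 the IFNγ difference was -4.925 points (exact permutation p = 0.657).

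The base composition of the RUNX2 promoters differed. The 250 bases before P1 held 41.6% G and C and 1 CpG, and those before P2 held 65.6% and 23 CpGs. Among protein-coding genes, the same window before the first TSS had a median of 66.0% and 22 CpGs in 8614 genes with a peak at that TSS in all libraries, and of 49.2% and 3 CpGs in 7332 genes with none. The window before P1 held matches to the RUNX and AP-1 letters, and that before P2 held none of the 6 motifs. SP7 and ALPL went against this pattern. The window before the first TSS of SP7, with a peak in all 8 libraries, held 61.6% G and C but only 7 CpGs. The lower quartile for genes with a peak in all libraries was 16 CpGs. SPARC, listed in 5 libraries, held 60.4% and 6 CpGs. The window before the first TSS of ALPL held 83.6% G and C and 32 CpGs, yet no library had a peak there. Of the 1894 genes with at least as many CpGs, 102 (5.39%) had no peak at the first TSS in any library and 1468 (77.5%) had one in all 8. For the other genes at 0 libraries, SPP1, IBSP and DLX5, the window held 44%, 40.0% and 48.4% G and C and 3, 4 and 6 CpGs.

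**Figure D2:**
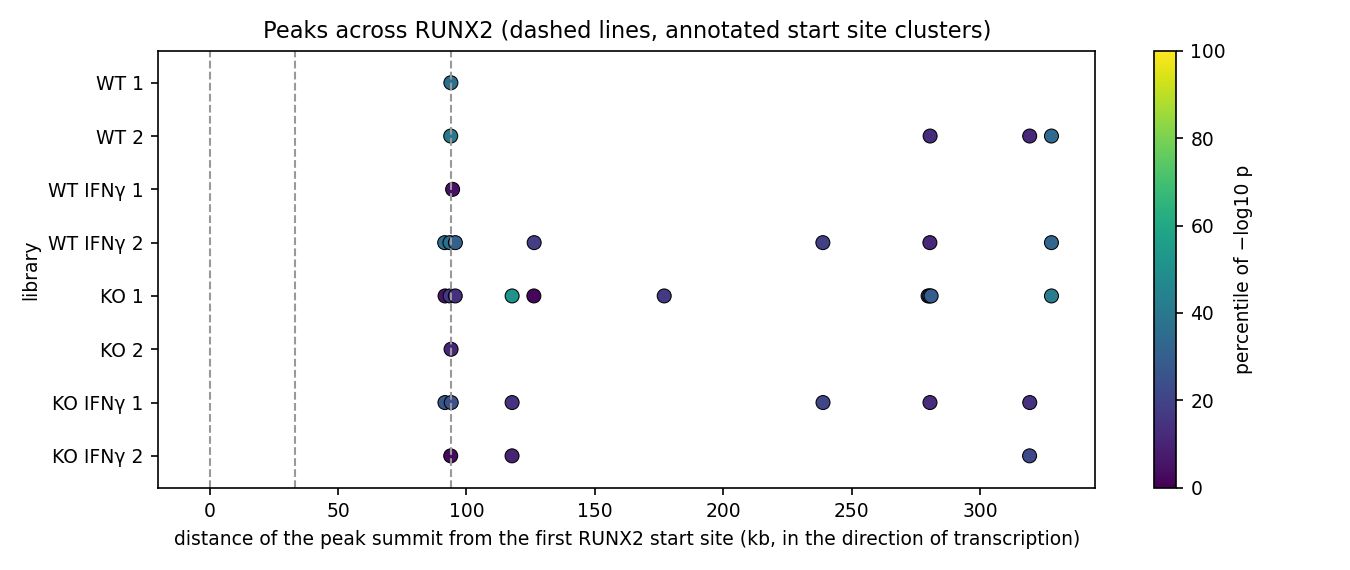
Summits of the RUNX2 peaks (points) in each library (rows) by distance from the first TSS in kb, coloured by percentile of −log10 p, with dashed lines at the annotated TSS clusters. All 8 libraries have a summit at the third cluster (P2), none has one at the first or second, and clone KO_C5 untreated carries the most peaks.

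SP7 was open past its start site. The region (chromosome 12, 53344705 to 53345511) touches the first TSS, and its summits lay between 391 and 449 bp downstream of it, in intron 1, in all 8 libraries. The 250 bases centred there held 78.8% G and C, with 5 matches to the SP letters and 1 to the RUNX letters. The percentile was 43.8 and 24.9 in untreated WT, 18.9 and 66.0 in IFNγ-treated WT, 54.1 and 5.62 in untreated KO and 54.4 and 13.1 in IFNγ-treated KO libraries. Clone KO_D2 was low and clone KO_C5 high in both conditions, and the WT clones moved in opposite directions with IFNγ, so neither genotypes nor treatments separated. WT clones averaged 38.4 ± 9.94 and KO clones 31.8 ± 31.7 (exact permutation p = 1), and IFNγ libraries exceeded untreated ones by 5.98 points (exact permutation p = 0.657). The local background was between 1.94 and 2.37 times the library background in WT and between 4.78 and 4.94 times in KO. The other annotated TSSs of SP7 had no peak.

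DLX5 had no promoter peak, yet a region beyond its 3′ end (chromosome 7, 97016358 to 97017428, intergenic, 3371 bp past the gene) was the only distal region of the 9 genes found in all 8 libraries. This is 1 of 33 beside 4.52% of 22353 distal regions within 20 kb of any protein-coding gene, and at equal list lengths the count was 0. The percentile was 35.4 and 42.5 in untreated WT and 16.7 and 25.0 in untreated KO libraries. After IFNγ it was 50.02 and 59.0 in WT and 44.7 and 41.6 in KO libraries. The IFNγ libraries averaged 48.8 ± 7.62 and the untreated ones 29.9 ± 11.3 (SD, n = 4 each), and a single pair kept the groups from separating, since IFNγ-treated KO_D2 (41.6) lay below untreated WT_5 (42.5). The difference of 18.9 points gave an exact permutation p of 0.0571, where the smallest possible was 0.0286, and an adjusted p of 1 over 11551 regions. The percentile was higher in all 4 clones, by 14.6 in WT_4, 16.5 in WT_5, 28.0 in KO_C5 and 16.6 in KO_D2. Tested within clones, with the clone as a block, the exact permutation p was 0.125, the smallest that 4 clones allow. This change was larger than that of 95.6% of the 11551 regions.

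The rise at DLX5 was not equal on all scales. Fold enrichment went from 8.33 to 12.8 in WT_4, from 7.79 to 12.8 in WT_5 and from 5.52 to 10.1 in KO_C5, and from 7.86 to 7.62 in KO_D2. Summit pileup over library background gave the same split, with 27.5 to 45.1, 23.4 to 42.9 and 22.3 to 35.3 in the first 3 clones and 31.9 to 28.7 in KO_D2. In WT_4 the rise came with a shorter list after IFNγ (18913 peaks against 21715), whereas the lists of the other 3 clones grew. For genotype, the WT clones averaged 46.7 ± 5.68 and the KO clones 32 ± 1.82, and the libraries overlapped (exact permutation p = 0.333). The summit sequence held 66.8% G and C with 2 matches to the SP letters and none to the homeodomain letters.

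**Figure D3:**
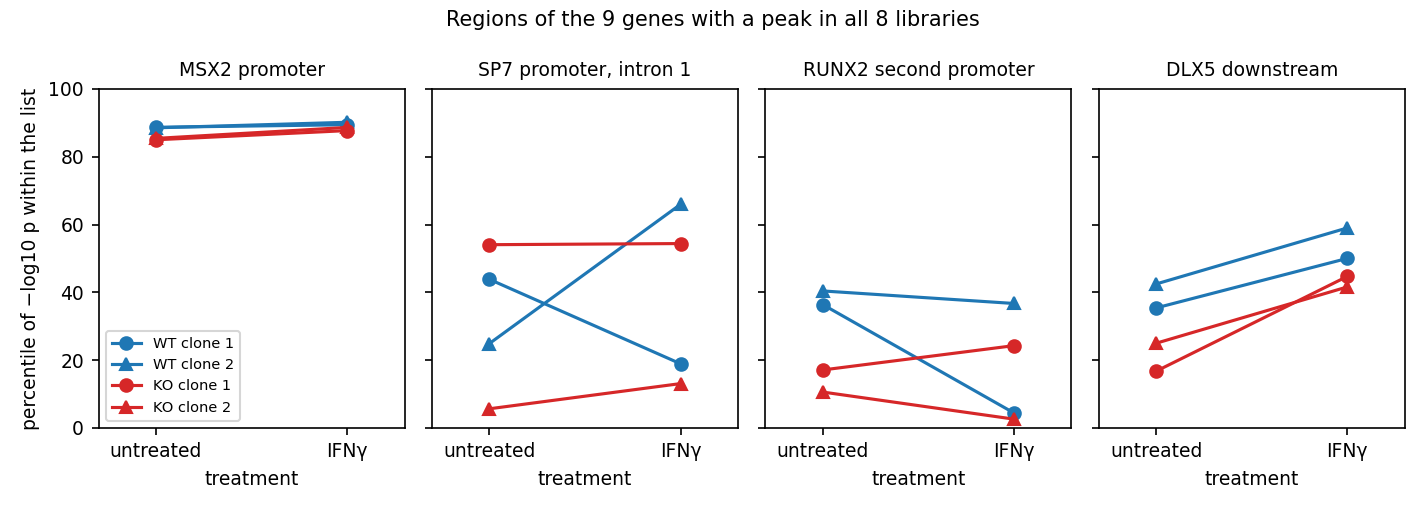
Percentile of −log10 p in the 4 regions of the 9 genes found in all 8 libraries, untreated and after IFNγ, with 1 line per clone (blue WT, red KO, circles clone 1, WT_4 or KO_C5, triangles clone 2, WT_5 or KO_D2). Lines rise in all 4 clones at MSX2, where other scales turned the direction, and at DLX5, and cross at SP7 and RUNX2.

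Over these 4 regions, 0 were higher in every WT than in every KO library by percentile, beside 7.13% of the 11551 regions present in all libraries, and 0 were higher in every KO library, beside 0.286%. In the same way, 0 were higher in every IFNγ than in every untreated library, beside 0.996%, and 0 lower, beside 0.0779%. The percentile rose with IFNγ in each of the 4 clones at 2 of the 4 regions, MSX2 and DLX5, beside 15.9% of all. At MSX2 the average rise was 2.08 points (exact permutation p = 0.171), close to the median change of 2.48 points over all regions, and its direction turned at equal list lengths (-1.03 points), by fold enrichment (-2.99) and by pileup over library background (-13.2). The median WT minus KO difference was 10.7 points over the 4 regions and 4.18 over all regions. With a smallest possible exact permutation p of 0.333 for genotype, no region could pass after adjustment over 11551 regions, so the adjusted p of 1 for genotype carries no information on them. For IFNγ the smallest possible exact permutation p was 0.0286, and a region could pass only if a large part of the 11551 regions reached it. In these data 124 regions had an unadjusted p under 0.05 for IFNγ, so the adjusted p says little about any single region.

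Among the matrix genes, SPARC had a promoter peak (chromosome 5, 151686806 to 151687140) at percentiles 41.3 and 47.1 in clone WT_5, untreated and treated, 3.96 in untreated KO_D2, 40.2 in IFNγ-treated KO_C5 and 38.4 in IFNγ-treated KO_D2. Both libraries of WT_4 and untreated KO_C5 had none. The strongest distal region of SPARC (151699136 to 151699507), 12379 bp upstream of the first TSS in the lncRNA gene CLMAT3, was present in exactly the same 5 libraries, at percentiles 61.7, 70.5, 40.7, 70.7 and 63.0. In each of them it ranked above the promoter. Its 250 bases held 1 match each to the RUNX, AP-1 and SP letters. A nearer region 7318 bp upstream (151694066 to 151694500) was present in 6 libraries, at percentiles between 7.6 and 44.8. SPARC was thus the member with the most widely shared distal regions after DLX5.

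ALPL, the enzyme that removes the mineralisation inhibitor pyrophosphate, was not listed at its main start site. The cluster of 4 TSSs at chromosome 1, 21509397 to 21509428, and the TSSs at 21551279 and 21570303 had no peak in any library. The 4 libraries counted above had peaks that overlapped the window around the last annotated TSS, at 21574478 inside the gene. These peaks formed 2 regions. The region at 21574113 to 21574380 was at percentiles 28.5 and 37.4 in WT_5, untreated and treated, and 10.2 in IFNγ-treated KO_C5. The region at 21574577 to 21575214 was at 0.112 and 46.0 in WT_5, untreated and treated. It was at 50.2 in IFNγ-treated KO_C5 and 6.77 in IFNγ-treated KO_D2. BGLAP had a peak (chromosome 1, 156241484 to 156241837) in both libraries of WT_5, at percentiles 32.3 and 48.7 with fold enrichments of 7.6 and 10.9, and in no other library. Its summits lay 516 and 513 bp upstream of the TSS, just outside the 500 bp promoter window, which only the downstream part of the peak reached. This peak also lies inside the readthrough gene PMF1-BGLAP.

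SPP1 and IBSP, neighbours in a cluster of mineralised tissue phosphoprotein genes on chromosome 4, had no promoter peak and 1 distal region each. The region near SPP1 (87966398 to 87966758, 8938 bp upstream) was listed in IFNγ-treated KO_D2 at percentile 3.74. The one near IBSP (87819302 to 87819637, 7035 bp downstream of the gene) was listed in both libraries of WT_5, at percentiles 47.3 and 20.3, and in IFNγ-treated KO_D2 at 22. Of the other genes in that cluster, DMP1 and MEPE also had no promoter peak in any library.

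Most of the 33 distal regions were listed in few libraries. They comprised 11 at RUNX2, 7 at ALPL, 4 at SPARC, 3 each at BGLAP and DLX5, 2 at MSX2 and 1 each at SP7, SPP1 and IBSP. By place, 16 lay in introns, 1 in an exon, 9 upstream and 7 downstream of the gene. Of the 33, 13 were present in 1 library, beside 53.0% of all distal regions within 20 kb of protein-coding genes. The RUNX2 regions all lay in introns downstream of P2 or just before it, and none of the 11 was listed in more than 4 libraries. The RUNX2 region at 45445806 to 45446201, chosen for mention after its values were seen, was listed in 3 KO libraries, at percentiles 51.3, 14.1 and 9.42, and in no WT library.

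Of the 33 distal regions, 11 were found only in WT libraries, beside 47.6% of distal regions within 20 kb of protein-coding genes, 6 only in KO libraries, beside 14.4%, and 16 in both. Promoter and distal regions together numbered 40. None of these was listed in all libraries of one genotype and none of the other, or in all libraries of one treatment and none of the other, beside 0.345% of all regions. IFNγ-treated WT_5 held 29 of the 40, and 6 of the 13 regions present in 1 library were its own. IFNγ-treated WT_4 held 4. The number per library was 6 in the shortest list and 29 in the longest, but it did not follow list length throughout. Untreated KO_C5 held 14 with 19255 peaks, and untreated WT_4 held 8 with 21715. The part of list length in these counts was not tested apart from the cut to equal lengths, which left 11 of the 33 distal regions.

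**Figure D4:**
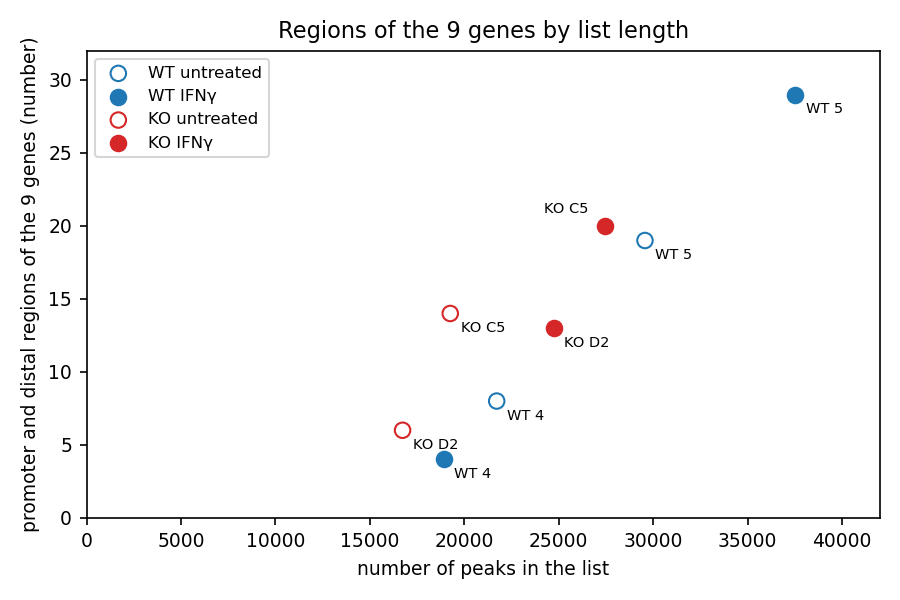
Number of promoter and distal regions of the 9 genes in each library against the number of peaks in its list, with clones named, WT blue, KO red, open symbols untreated and filled symbols IFNγ. The longest list, IFNγ-treated WT_5, has 29 regions, and IFNγ-treated WT_4 has 4.

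The 3 regions at promoters of neighbours were found in all 8 libraries. AAAS, which encodes a nuclear pore protein, lies beyond the 3′ end of SP7, and its promoter regions at 53321176 and 53324734 on chromosome 12 were at percentiles between 37.0 and 85.5 and between 63.8 and 88.3. The promoter of the lncRNA LINC02596 downstream of ALPL (21586852 to 21587442) was at percentiles between 15.7 and 87.3. It was the more strongly listed start site in the ALPL window in every library.

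Other genes of the lineage were compared by role, from lists of 50 genes that were all matched. In all, 29 of 50 had a promoter peak in every library, 11 in some and 10 in none, beside the 51.2% of protein-coding genes with one in every library. A promoter with a peak in all 8 libraries is called constant here. Of 9 further transcription factors, 6 were constant, among them CBFB, the partner of RUNX proteins (percentiles from 37.4 to 73.6), RUNX1 (73.3 to 91.5) and MSX1 (62.5 to 80.4). DLX6, which lies next to DLX5, had none. Of 7 BMP ligands and receptors 6 were constant, from the ligands BMP4 at 79.2 to 95.1 and BMP2 at 30.0 to 60.1 to the receptors BMPR1A at 86.6 to 95.2 and BMPR1B at 5.02 to 49.95, and all 4 SMADs, which carry BMP signals to the nucleus, were constant. In the Wnt pathway 4 of 7 were constant, with the feedback inhibitor AXIN2 at 88.5 to 94.5.

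Of 7 bone matrix genes, COL5A1 and FN1 were constant, COL1A1 was listed in 7 libraries (51.8 to 86.4), BGN in 1, and COL1A2, DCN and OMD in none. None of 6 osteocyte genes was constant, and DMP1, MEPE, PHEX and SOST had no peak in any library. Of 5 mineralisation genes 4 were constant, among them PHOSPHO1, a phosphatase of matrix vesicles (68.3 to 89.5), the phosphate transporter SLC20A1 (97.5 to 99.7) and ENPP1, which makes pyrophosphate (1.09 to 71.0). Of 5 hormone and osteoclast signals, VDR, TNFRSF11B and CSF1 were constant and TNFSF11, the ligand that TNFRSF11B binds, had none. The labelled origin was set beside markers of other tissues. Constant promoters were found for 2 of 7 cartilage, 1 of 6 fat, 0 of 6 muscle and 0 of 6 blood markers and for 7 of 7 housekeeping genes, beside 3 of the 9 osteoblast genes. Cartilage markers were listed in a median of 6 libraries and osteoblast genes in 4. The median percentile where constant was 63.7 for cartilage and 35.1 for osteoblast. SOX9 is counted both as a transcription factor of the lineage and as a cartilage marker. No test was made of these shares.

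**Figure D5:**
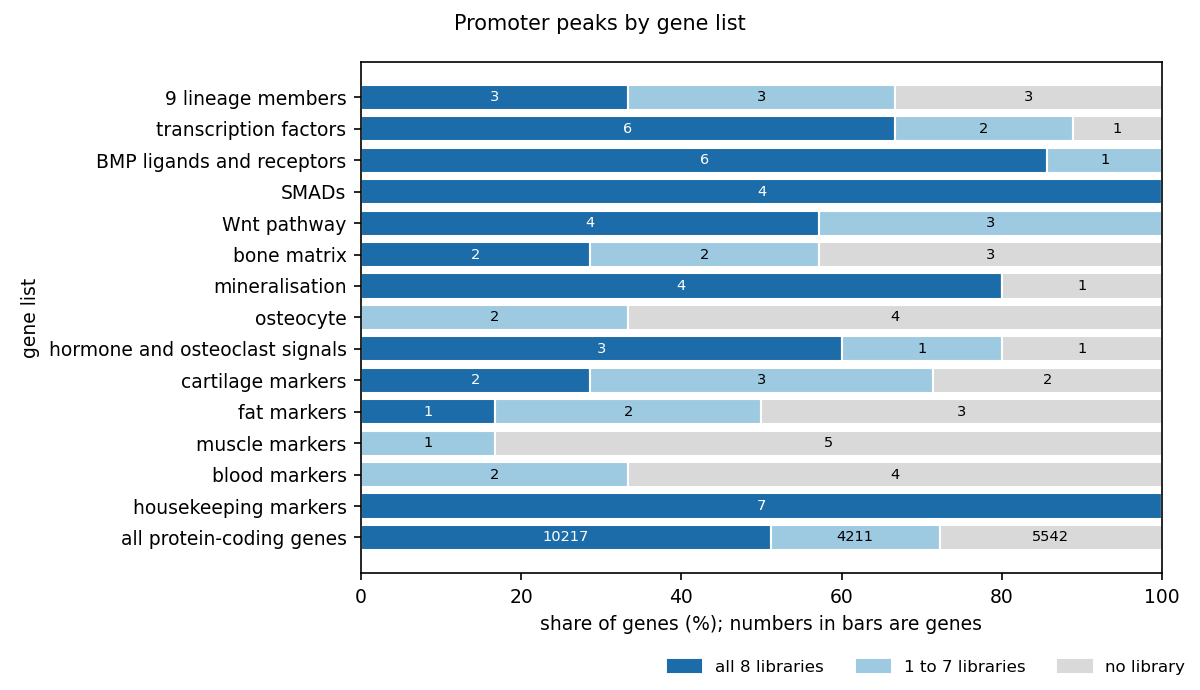
Share of genes (%) in each list with a promoter peak in all 8 libraries (dark), in 1 to 7 (light) and in none (grey), with numbers of genes in the bars. BMP, SMAD and housekeeping lists are mostly dark, and osteocyte, muscle and blood lists have no dark part.

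The genes with promoter profiles most like those of the members were ranked by the mean absolute difference in percentile over the 8 libraries, with no peak counted as 0. MSX2 was closest to ETS1 (0.924 points), EPN1 (1.19) and SLC25A1 (1.44). SPARC was closest to OLFML3 (1.33) and to PRPF31 and TFPT (1.66 each), which share a promoter peak. RUNX2 was closest to GRIA4 (3.8), PRIMA1 (4.93) and IDNK (4.99), SP7 to S1PR5 (5.57), ENSG00000285304 (6.14) and ADAMTS10 (6.28), and ALPL to ALKBH8 (2.36), ZNF91 (2.79) and CDK5RAP1 (3.29). BGLAP was listed in too few libraries to be compared.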

How the data were processed

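FAIRE-seq was performed by the study in 8 U2OS libraries. Per the labels and the study's methods, the authors trimmed reads with Trimmomatic, aligned them to GRCh38 with Bowtie2 2.2.5, removed reads with a mapping quality under 30 with SAMtools 1.14 and called peaks with MACS2 2.2.7.1 in paired-end mode. Each library has its own deposited list, made before any merging of replicates. The deposited fold enrichment is a ratio of summit pileup to local background, and MACS2 also gave the deposited −log10 p and −log10 q of each peak. Whether input DNA was the control is not given in the sources used here.

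All peaks used fell within the chromosome lengths of the reference. Percentiles of −log10 p were computed within each list. Since MACS2 takes −log10 p from a Poisson distribution, the summit pileup and its local background were solved from −log10 p and fold enrichment together, and over 99.9% of peaks gave a whole number of fragments (relative tolerance 0.0001). The lowest local background of a list stands for its library background, in place of depth.

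Genotype was tested on clone means over 6 assignments of clones, and IFNγ over 70 assignments of libraries, by two-sided exact permutation tests on all 11551 regions present in 8 libraries, with Benjamini-Hochberg adjustment. Clones are the replicates. By the labels, each clone pairs an untreated with an IFNγ library, and their deviations from group means correlated at 0.594 in WT and 0.408 in KO. The IFNγ test over libraries ignored this pairing. Tested within clones, the exact permutation p for IFNγ was 0.375 at RUNX2 P2, 0.625 at SP7 and 0.125 at MSX2 and at DLX5. Between genotypes, clones have only a number in common. Promoter shares were counted over protein-coding genes. Motifs were searched in 150 bp either side of summits. Python 3.11.15 with pandas 2.3.3, scipy 1.17.1 and pysam 0.24.0 was used, and the code was tested on simulated lists. Alternatives were stricter peaks, lists of equal length, other overlaps, promoters, flanks and scales, a block on the clone, and leaving out each replicate.

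All 9 members are named, with their regions in 7 or 8 libraries or at promoters. Other lineage genes are counts by role with up to 4 examples, and the 3 most alike genes are given for members found in 3 or more libraries. The members, lists and tests were chosen with earlier results of these data known.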

Additional observations from a re-analysis of the deposited data

Results flagged for a closer look

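One neighbouring promoter moved in opposite directions with IFNγ in the 2 genotypes. At the AAAS promoter region starting at 53324734 in the SP7 window, the percentile decreased in both WT clones, by 16.7 in WT_4 and 3.20 in WT_5 (mean change -9.95 points), and increased in both KO clones, by 7.75 in KO_C5 and 0.969 in KO_D2 (mean change 4.36 points). It was flagged from a scan of the 7 regions in the member windows present in all 8 libraries. The share of all regions with such opposite directions was not counted, and the difference between genotypes was not tested.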

How the results depend on the processing

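The count of member promoters found in all libraries went from 3 to 1 (MSX2) with a fold enrichment of at least 4 and also 1 with lists of equal length. Distal regions went from 33 to 11 with lists of equal length and 17 in gene bodies only, and those found in all libraries from 1 to 0 with equal lengths, 0 in gene bodies only and 2 with a flank of 50 kb. With only the TSSs of protein-coding transcripts, distal regions numbered 35 and members with no promoter peak went from 3 to 4. Regions called for IFNγ went from 0 to 1 (DLX5) at a −log10 q of at least 3. Their number ranged from 0 to 1 without single libraries, with DLX5 called without untreated WT_5 or IFNγ-treated KO_D2. The replicate block used another rule, the same direction in all 4 clones. By that rule 2 regions qualified (MSX2 and DLX5, both rising), beside 15.9% of all regions that rose in each clone. Regions called for genotype went from 0 to 1 (MSX2) by fold enrichment, a scale on which 22.8% of all regions were higher in every WT library. Their number ranged from 0 to 1 without single libraries, with MSX2 called without untreated WT_5 or IFNγ-treated KO_D2 and RUNX2 without IFNγ-treated WT_4. Regions with a presence pattern ranged from 0 to 1, the 1 being the RUNX2 region at 45445806 without untreated KO_D2. Each library whose omission gave a call or pattern was one that stood in its way, so these follow from the omission. The share of all regions called under the same omissions, or at a −log10 q of at least 3, was not counted. The DLX5 IFNγ difference was 19.5 (exact permutation p = 0.0286) at a −log10 q of at least 3 and 23.1 without untreated WT_5 (exact permutation p = 0.0286), and its p ranged from 0.0286 to 0.125 over alternatives. Directions reversed for MSX2 with IFNγ (-1.03 with equal lengths, -2.99 by fold enrichment, -13.2 by pileup), for MSX2 by genotype (-0.0344 with equal lengths), for SP7 with IFNγ (-3.32 without IFNγ-treated WT_5, -2.84 without untreated KO_D2, with a range up to 14.3 without single libraries) and for SP7 by genotype (-10.2 by pileup, -3.66 without IFNγ-treated WT_5). Among alternatives for the counts, 85 left a count within 1.5 times its main value and 16 did not. Among those for single regions, 94 kept direction and side of the threshold of 0.05, 8 reversed and 2 fell below it. For genotype and for the block on the clone, the smallest possible exact permutation p was 0.333 and 0.125. No alternative there could change side of the threshold, so the 94 is not a measure of stability. The causes were not tested. Peak lists give no read depth, so weak peaks such as RUNX2 P2 cannot be followed below the calling threshold.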

Other observations

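The letters TTAGGG were found in 7 of the 33 distal regions (21.2%), beside 6.86% of 31919 distal regions of the series. They lay at 1 region each of RUNX2 (45647433), SPARC (151659015) and DLX5 (97027513) and 2 each of ALPL (21512036 and 21564174) and MSX2 (174720925 and 174732134), each in between 1 and 3 libraries, and in 0 of the 7 member promoter regions. The RUNX letters TGTGGT were found in 4 of the 33 (12.1%), beside 24.9% of all distal regions, and the AP-1 letters TGANTCA in 7 (21.2%), beside 27.1%. The TEAD letters GGAATG were found in 9 (27.3%), beside 19.8%, the homeodomain letters TAATTA in 3 (9.09%), beside 3.68%, and the SP letters GGGCGG in 7 (21.2%), beside 26.6%. These are counts of letters over few regions, most of them present in 1 or 2 libraries.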
